A study of Mus musculus with 6 samples.

Results

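The genes described here encode the surface machinery with which endothelium restrains clotting and starts fibrinolysis. They were the rows of the deposited table whose gene name was Thbd, Procr, Tfpi, Serpine2, F3, F2r, Plau, Plat, Plaur or Anxa2, 10 genes of 55232 features, each with 1 row. The cells sequenced were pulmonary microvascular endothelial cells of the mouse, a cell line per the labels, which shared a chambered culture for 12 h and were collected from its lower chamber. In the repletion group, 3 samples had been cultured with TCMK-1, a tubular epithelial line of mouse kidney, that had been depleted of ATP and then allowed to regain it, which the labels abbreviate as IR. In the control group, 3 samples had been cultured with untreated TCMK-1 cells. The endothelial cells themselves were untreated in both groups, and no genotype or age is given in the labels.

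As background, resting endothelium keeps blood fluid by binding thrombin to thrombomodulin (Thbd), which turns it from a clotting enzyme into the activator of protein C, and by presenting protein C on its receptor (Procr). Tissue factor pathway inhibitor (Tfpi) blocks the complex of tissue factor (F3) with factor VIIa, the trigger of coagulation, and thrombin that escapes these controls signals to the cell through the receptor PAR1 (F2r). Fibrin is removed by plasmin, which the urokinase-type activator (Plau), held by its receptor (Plaur), and the tissue-type activator (Plat) release from plasminogen. Annexin A2 (Anxa2) serves as an assembly site for plasminogen and Plat on the cell surface, and protease nexin 1 (Serpine2) inhibits thrombin and urokinase.

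Of the 10 genes, 7 had an entry in RefSeq's table of promoters of GRCm38.p6, which covers 250 bases before to 50 bases after an annotated start. Thbd, Plat and Plau had no entry and are left out of the motif counts below. Tfpi had 2 of the 8 entries, and its other entry, at chr2:84474125-84474424 on the minus strand, is not shown and held no match to TGANTCA either. The promoters of the genes that passed the test described further on and had an entry (F2r, Procr and Tfpi), and that of F3, are shown 5′ to 3′, with matches to TGANTCA, the letters bound by AP-1 factors, in capitals. They lie at chr13:95618417-95618716 on the minus strand for F2r, chr2:155750967-155751266 on the plus strand for Procr, chr2:84476710-84477009 on the minus strand for Tfpi and chr3:121723287-121723586 on the plus strand for F3.
F2r: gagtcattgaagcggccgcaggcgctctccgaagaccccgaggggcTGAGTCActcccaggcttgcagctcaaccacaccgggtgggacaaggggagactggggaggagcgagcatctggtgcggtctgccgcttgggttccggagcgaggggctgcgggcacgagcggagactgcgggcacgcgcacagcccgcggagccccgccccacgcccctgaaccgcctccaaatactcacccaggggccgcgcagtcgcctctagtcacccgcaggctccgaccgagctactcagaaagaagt
Procr: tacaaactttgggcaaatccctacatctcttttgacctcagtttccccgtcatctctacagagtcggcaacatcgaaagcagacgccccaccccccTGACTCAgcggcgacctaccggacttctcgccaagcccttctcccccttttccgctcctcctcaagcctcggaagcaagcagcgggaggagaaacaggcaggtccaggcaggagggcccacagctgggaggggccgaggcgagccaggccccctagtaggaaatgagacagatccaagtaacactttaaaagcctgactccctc
Tfpi: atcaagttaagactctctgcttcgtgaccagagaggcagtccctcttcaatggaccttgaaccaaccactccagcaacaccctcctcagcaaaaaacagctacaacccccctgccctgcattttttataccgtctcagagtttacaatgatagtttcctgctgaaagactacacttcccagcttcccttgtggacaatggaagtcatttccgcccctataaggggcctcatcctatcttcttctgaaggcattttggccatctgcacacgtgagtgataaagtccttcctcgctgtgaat
F3: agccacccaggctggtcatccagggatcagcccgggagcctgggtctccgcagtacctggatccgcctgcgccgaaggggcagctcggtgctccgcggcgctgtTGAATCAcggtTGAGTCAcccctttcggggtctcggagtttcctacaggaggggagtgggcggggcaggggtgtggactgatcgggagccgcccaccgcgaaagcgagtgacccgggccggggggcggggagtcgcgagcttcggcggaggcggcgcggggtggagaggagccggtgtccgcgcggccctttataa
On either strand, TGANTCA was present in the promoters of 5 of these 7 genes, Anxa2, F2r, F3, Plaur and Procr, with 2 matches in F3 and 1 in each of the others, against 7.81% of all 32851 promoters in the table. The GC box GGGCGG was present in 6 of the 7, all but Procr, against 35.7% of all promoters. The KLF letters CACCC were present in 5 of the 7 (Anxa2, F2r, F3, Procr and Tfpi), against 57.5%, and the TEAD letters GGAATG in 0 of the 7, against 14.7%. CACCC shares bases with the second TGANTCA match of F3 and with that of Anxa2. A match describes letters in these windows and is not a measured binding site.

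The libraries held 15582349 to 17817618 counts. The labels do not say whether replicates were separate cultures; the spread behind each p-value is that of these samples and may be technical. Endothelial markers were abundant, with a summed level of 2532 to 2983 CPM (read counts scaled to library depth) in repletion and 2380 to 2651 in control libraries over 12 markers, of which Cldn5 had 3 reads in 1 library and 0 in the rest. The 12 tubular epithelial markers summed to 9.24 to 15.4 CPM in repletion and 7.95 to 9.55 CPM in control libraries, and Epcam, Krt18 and Slc34a1 were at 0 in all 6. The 8 leukocyte markers summed to 223 to 311 CPM in repletion and 378 to 416 in control libraries, nearly all of it Cd68, while Ptprc had 4 reads in 1 library and Cd3e and Itgam had 0. The 8 fibroblast and mural, 6 lung epithelial and 4 lymphatic markers summed to 17.7 to 25.2, 0.906 to 1.80 and 116 to 133 CPM in repletion libraries, against 20.4 to 23.1, 0.225 to 0.925 and 77.1 to 101 CPM in control libraries. Nearly all of the lymphatic sum was Flt4 (mean 95.9 CPM in repletion, 75.0 in control) and Lyve1 (23.7 and 16.7). Prox1 had 0 to 13 reads per library. Pdpn, at 4 to 44 reads, was lower in repletion (log2 fold change -1.54, adjusted p 0.0347, edgeR quasi-likelihood). In the same edgeR quasi-likelihood test, Lyve1 (0.51, 0.0253), Flt4 (0.36, 0.0257) and the lung epithelial Ager (2.20, 0.0198) were higher. Cd68 was lower there (-0.63, 0.000475). Of the endothelial markers, Erg (1.06), Flt1 (0.93), Eng (0.69), Tek (0.58) and Egfl7 (0.42) passed as higher and Esam (-0.46) as lower. No other tested marker passed. The part of these marker levels in the results was not tested, and in bulk samples fewer cells of a type and less RNA per cell cannot be told apart.

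Plau and F2r were higher in the repletion group, by 1.79-fold and 1.42-fold, and the anticoagulant genes Thbd, Procr and Tfpi were lower, at 0.771, 0.755 and 0.826 of control. F3, Plaur, Anxa2 and Plat did not pass the test, and Serpine2 was too low to be tested. Of the 9 genes that passed the filter on low counts, 2 were higher and 3 lower at an adjusted p under 0.05 in the edgeR quasi-likelihood test, 5 calls against 39.7% of all tested features, and by direction against 20.5% and 19.2% of the 13804 features tested. The median log2 fold change of the 9 genes was -0.27, and that of all tested features was 0.001. With each library's trend with feature length and GC content adjusted for, 3 members were higher and 4 lower, while 37.5% of all calls were higher, against 51.6% as reported. Over all features, 2191 were then higher and 3649 lower, against 2830 and 2654 as reported, so calls of lower features rose in general. Groups did not overlap, with repletion above control, for 3 of the 9 (25% of all tested features), and with repletion below control for 3 (25.4%). With 9 genes, these shares lie near those of all features, and they are no result about the members as a set.

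**Figure D1:**
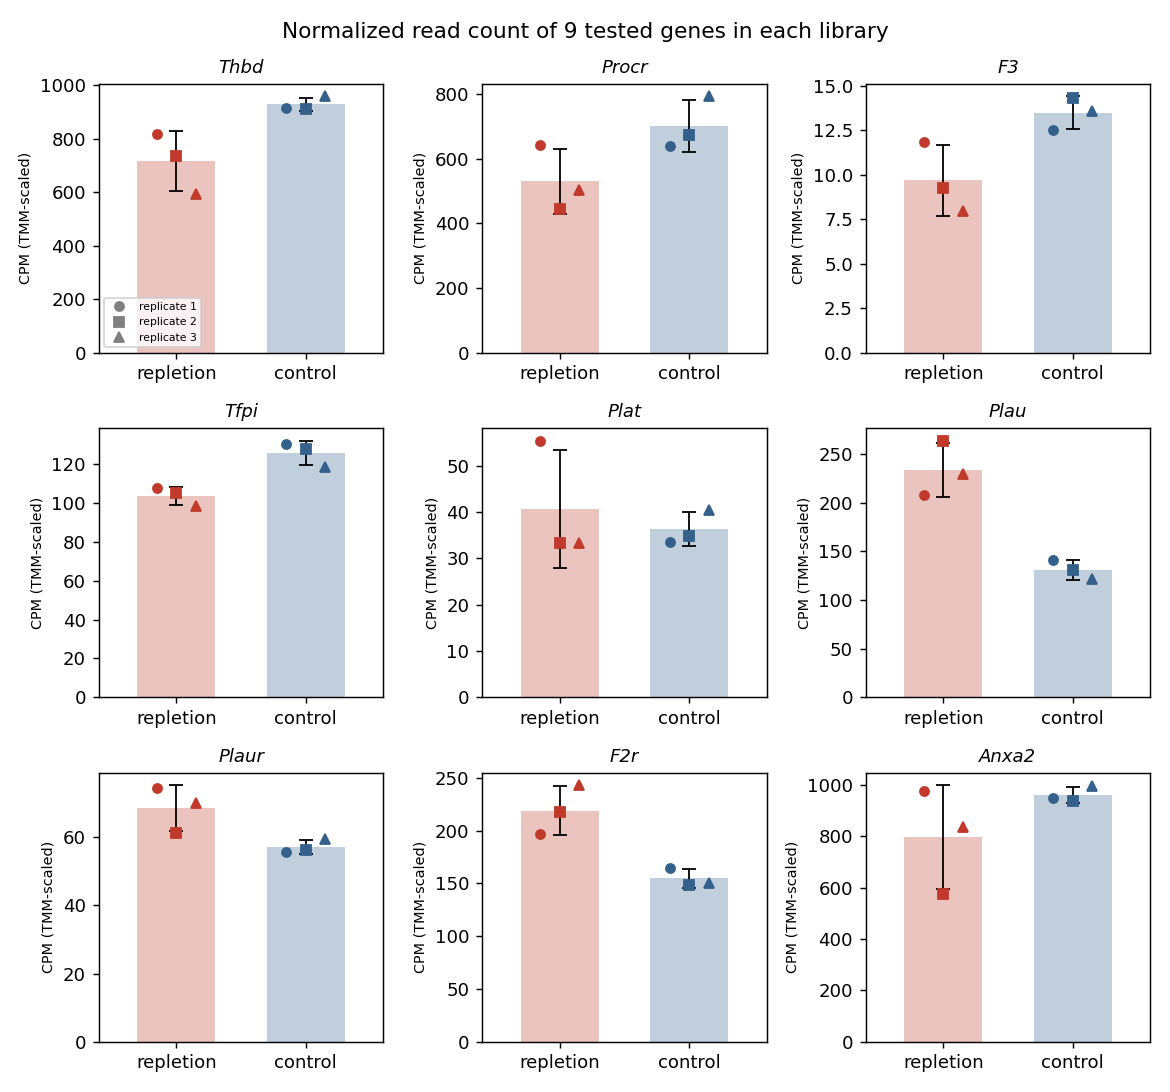
Normalized read count (CPM, scaled with TMM factors; vertical axes start at 0) of the 9 tested genes in 3 repletion and 3 control libraries; bars are means, error bars SD, and symbols mark the replicate number. Plau, F2r and Plaur have all 3 repletion libraries above all control libraries, Thbd, Tfpi and F3 have them below, and Plat, Anxa2 and Procr overlap.

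Among the anticoagulant genes, Thbd (ENSMUSG00000074743, chromosome 2, 148404466 to 148408188 in GRCm38, minus strand, 1 exon) stood at 817, 735 and 595 CPM in repletion replicates 1, 2 and 3, against 914, 913 and 959 CPM in control replicates 1, 2 and 3. All repletion libraries lay below all control libraries, and replicate 3 was the lowest. Thbd fell by 0.38 ± 0.11 on the log2 scale (SE), with adjusted p = 0.0132 (edgeR quasi-likelihood). Without repletion replicate 3 its log2 fold change was -0.26 with an adjusted p of 0.103, in a range of 0.001 to 0.103 over its 16 alternatives.

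Procr (ENSMUSG00000027611, chromosome 2, 155751117 to 155755471, plus strand, 3 exons) had 642, 445 and 504 CPM in repletion replicates 1 to 3 and 640, 673 and 793 CPM in control replicates 1 to 3. Repletion replicate 1 lay at the level of control replicate 1, so the groups overlapped. Procr fell by 0.40 ± 0.13 (SE, log2), with adjusted p = 0.0174 (edgeR quasi-likelihood). Its call was lost without repletion replicate 2 (log2 fold change -0.30, adjusted p 0.0639), repletion replicate 3 (-0.37, 0.0803) or control replicate 3 (-0.32, 0.1), in a range of 0.000447 to 0.1 over its alternatives.

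Tfpi (ENSMUSG00000027082, chromosome 2, 84432855 to 84476775, minus strand) had 108, 105 and 98.7 CPM in repletion replicates 1 to 3 and 130, 128 and 119 CPM in control replicates 1 to 3. The groups did not overlap, and the gene had the smallest relative spread of the 9 genes within the repletion group, a coefficient of variation (CV) of 4.41%, against 4.99% in control libraries. Tfpi fell by 0.28 ± 0.10 (SE, log2), with adjusted p = 0.0379 (edgeR quasi-likelihood), and with library size only as the scaling its log2 fold change was -0.21 with an adjusted p of 0.106. It did not pass without repletion replicate 3 (-0.25, 0.144) or without control replicate 1 (-0.27, 0.0817), 2 (-0.28, 0.086) or 3 (-0.33, 0.054), in a range of 0.00564 to 0.144 over its alternatives.

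Serpine2 (ENSMUSG00000026249, chromosome 1, 79794197 to 79861180, minus strand) had 2, 0 and 0 reads in repletion replicates 1 to 3 and 0, 0 and 2 reads in control replicates 1 to 3. Both groups lay under the floor of 3 counts per library, which is 0.168 to 0.193 CPM here, so no fold is given. Its transcript was not detectable above that level in these cells.

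F3 (ENSMUSG00000028128, chromosome 3, 121723537 to 121735048, plus strand), the tissue factor gene, had 11.8, 9.25 and 7.96 CPM in repletion replicates 1 to 3 and 12.5, 14.3 and 13.6 CPM in control replicates 1 to 3. All repletion libraries lay below all control libraries, but the log2 fold change of -0.48 ± 0.19 (SE; 95% interval -0.88 to -0.07) gave adjusted p = 0.0582 (edgeR quasi-likelihood). It passed without repletion replicate 1 (-0.65, 0.0154) and with length and GC content adjusted for (-0.55, 0.0267), in a range of 0.0154 to 0.213 over its alternatives. F3 rested on 133 to 236 reads per library, the fewest of the 9 tested genes.

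F2r (ENSMUSG00000048376, chromosome 13, 95601803 to 95618487, minus strand, 2 exons), the gene of the thrombin receptor PAR1, had 197, 218 and 243 CPM in repletion replicates 1 to 3 and 165, 149 and 150 CPM in control replicates 1 to 3. The groups did not overlap. F2r rose by 0.50 ± 0.11 (SE, log2), with adjusted p = 0.00133 (edgeR quasi-likelihood), and it passed in all 16 alternatives, with log2 fold changes of 0.41 to 0.57.

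Among the plasminogen activation genes, Plau (ENSMUSG00000021822, chromosome 14, 20836660 to 20843385, plus strand, 11 exons) showed the largest difference of the 9 genes. It had 208, 264 and 230 CPM in repletion replicates 1 to 3 and 141, 131 and 121 CPM in control replicates 1 to 3. The lowest repletion library lay well above the highest control library. Plau rose by 0.84 ± 0.11 (SE, log2), a 1.79-fold difference with a 95% interval of 1.52 to 2.10, with adjusted p = 2.26e-05 (edgeR quasi-likelihood). It passed in all 16 alternatives, with log2 fold changes of 0.74 to 0.91.

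The gene of the other activator, Plat (ENSMUSG00000031538, chromosome 8, 22757727 to 22782844, plus strand), had 55.4, 33.4 and 33.4 CPM in repletion replicates 1 to 3 and 33.6, 34.8 and 40.4 CPM in control replicates 1 to 3. Only repletion replicate 1 stood above the control libraries. The log2 fold change was 0.17 ± 0.17 (SE; 95% interval -0.20 to 0.53), with adjusted p = 0.474 (edgeR quasi-likelihood), and it was -0.13 without repletion replicate 1. It was 0.28 without repletion replicate 2, 0.29 without repletion replicate 3, 0.09 without control replicate 1 and 0.01 with length and GC content adjusted for.

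Plaur (ENSMUSG00000046223, chromosome 7, 24462484 to 24475968, plus strand), the urokinase receptor gene, had 74.4, 61.4 and 70.1 CPM in repletion replicates 1 to 3 and 55.7, 56.3 and 59.6 CPM in control replicates 1 to 3. All repletion libraries lay above all control libraries by a small margin. Its log2 fold change of 0.26 ± 0.11 (SE; 95% interval 0.02 to 0.50) gave adjusted p = 0.0773 (edgeR quasi-likelihood). It passed with library size only (0.32, 0.0327), without repletion replicate 2 (0.33, 0.0335) and with length and GC content adjusted for (0.26, 0.0441), in a range of 0.0327 to 0.237 over its alternatives.

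Anxa2 (ENSMUSG00000032231, chromosome 9, 69453620 to 69491795, plus strand) had 975, 576 and 836 CPM in repletion replicates 1 to 3 and 949, 937 and 997 CPM in control replicates 1 to 3. Repletion replicate 2 stood far below the other libraries, while repletion replicate 1 lay within the control range. The log2 fold change was -0.27 ± 0.14 (SE; 95% interval -0.57 to 0.02), with adjusted p = 0.132 (edgeR quasi-likelihood). It was -0.45 without repletion replicate 1 (adjusted p 0.00702), -0.09 without repletion replicate 2 (0.506) and -0.31 with no filter (0.0205), in a range of 0.00702 to 0.506 over its alternatives. Anxa2 overlaps the antisense gene Gm16144 and a microRNA gene, and the strand setting of the counting is not given in the sources used here. No other member overlaps an annotated gene. Only the longest transcript of each gene was searched for copies, and for no member did it share 100 bases at 95% identity with transcripts of another gene.

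**Figure D2:**
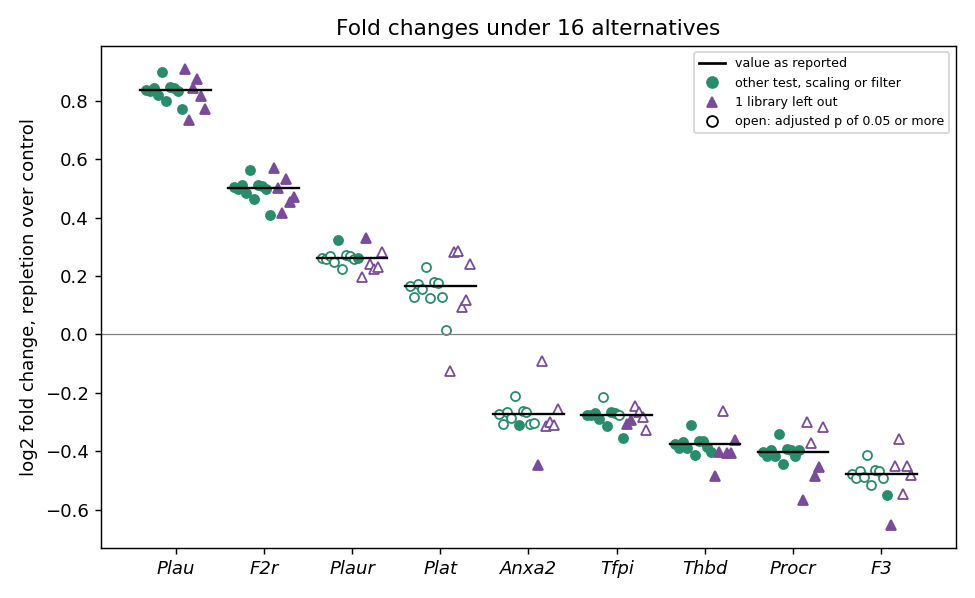
Log2 fold change (repletion over control) of the 9 tested genes as reported (black line) and under 16 alternatives, with circles for another test, scaling, design or filter and triangles for 1 library left out; open symbols did not pass an adjusted p of 0.05. Plau and F2r stay filled throughout, at 0.74 to 0.91 and 0.41 to 0.57, and Plat crosses 0 without repletion replicate 1.

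For most of these genes the spread was wider among repletion than among control libraries. The CV was larger in the repletion group for 8 of the 9 genes, all but Tfpi, against 55.2% of all tested features. The widest were Plat, with a CV of 31.3% in repletion and 10.0% in control libraries, and Anxa2, with 25.5% and 3.31%. Of all tested features, 50.4% lay above the group mean (log2 scale) in repletion replicate 1. This replicate lay above it in 7 of the 9 genes, all but Plau and F2r. Its mean absolute deviation from the group mean over these genes was 0.234 (log2), against 0.152 and 0.134 in repletion replicates 2 and 3 and 0.0405 to 0.083 in control libraries. Over all tested features the same deviation was 0.143 to 0.191 in repletion and 0.146 to 0.170 in control libraries. By this measure replicate 1 did not stand apart there. Repletion replicate 1 had the most features with a read, 22130, against 17899 to 20532 in the other libraries. Together the 10 genes took 0.318%, 0.249% and 0.264% of all counts in repletion replicates 1 to 3 and 0.295%, 0.301% and 0.317% in control replicates 1 to 3.

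Levels were set beside each other per length with the deposited FPKM (fragments per kilobase, scaled by the authors to depth). The length is that of all annotated exons merged, which can exceed the longest transcript. It is 3731 bases against 2280 for Anxa2, 2031 against 1608 for Procr and 3723 in both for Thbd. For Tfpi it is 5463 against 3968, and for Plaur 2617 against 2009. The orders below hold for this length, and another length was not tried. In repletion libraries Procr averaged 260 ± 47.8 FPKM, Anxa2 212 ± 52.8 and Thbd 191 ± 29.6 (SD, n = 3), and the ranges of neighbours in this order overlapped. In control libraries the same order held, with Procr at 341 ± 39.2 FPKM, above Anxa2 at 254 ± 8.56 and Thbd at 246 ± 7.02 (SD, n = 3), of which only Anxa2 and Thbd overlapped. Plau and F2r followed at 98.4 ± 12.4 and 65.3 ± 7.03 FPKM in repletion libraries, against 54.6 ± 4.14 and 45.8 ± 2.64 FPKM in control libraries. The order of Plaur and Tfpi differed: in repletion libraries Plaur, at 26.1 ± 2.36 FPKM, lay above Tfpi, at 18.9 ± 0.817, with no overlap, whereas in control libraries Plaur, at 21.6 ± 0.802, and Tfpi, at 22.7 ± 1.13, overlapped. Plat and F3 were the lowest of the 9, at 6.48 ± 1.99 and 3.81 ± 0.762 FPKM in repletion libraries and 5.74 ± 0.577 and 5.27 ± 0.351 FPKM in control libraries.

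**Figure D3:**
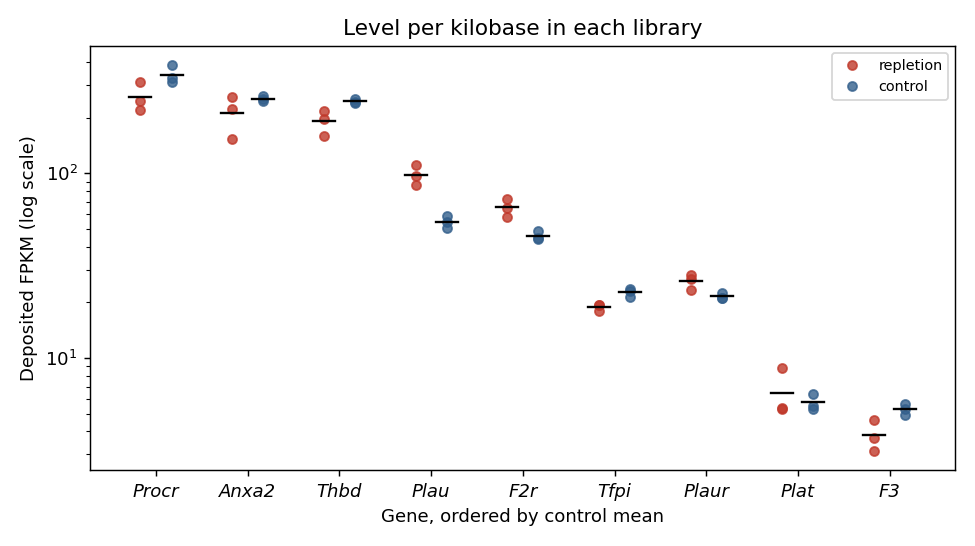
Deposited FPKM (log axis) of the 9 tested genes in each repletion (left) and control (right) library, ordered by the control mean; points are libraries and lines are means. Procr, Anxa2 and Thbd form the top, between 155 and 386 FPKM, and Plat and F3 the bottom, under 10 FPKM.

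Ratios between opposing or partner genes within a library need no scaling between libraries, and 3 are given here on counts per kilobase. The size of a ratio depends on the merged exon lengths, but its log2 difference between groups does not. For Plat that length is 6241 bases against 4042 for its longest transcript, and for Plau 2367 against 2342. The ratio of F3 to Tfpi was 0.238, 0.190 and 0.174 in repletion replicates 1 to 3 and 0.208, 0.242 and 0.248 in control replicates 1 to 3, which overlap. Plau exceeded Plat 9.91-, 20.8- and 18.2-fold in repletion replicates 1 to 3 and 11.1-, 9.89- and 7.90-fold in control replicates 1 to 3, and here only repletion replicate 1 fell among the control libraries. The ratio of Thbd to Procr was 0.695, 0.900 and 0.644 in repletion replicates 1 to 3 and 0.779, 0.740 and 0.660 in control replicates 1 to 3. The mean log2 ratios differed between repletion and control by -0.22 for F3 over Tfpi, 0.71 for Plau over Plat and 0.03 for Thbd over Procr, with two-sided exact permutation p of 0.2, 0.2 and 0.9. The smallest p that 3 against 3 samples can give is 0.1. Adjusted by Benjamini-Hochberg over the 5 ratios computed, the exact p of these 3 were 0.333, 0.333 and 0.9, so none passed.

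**Figure D4:**
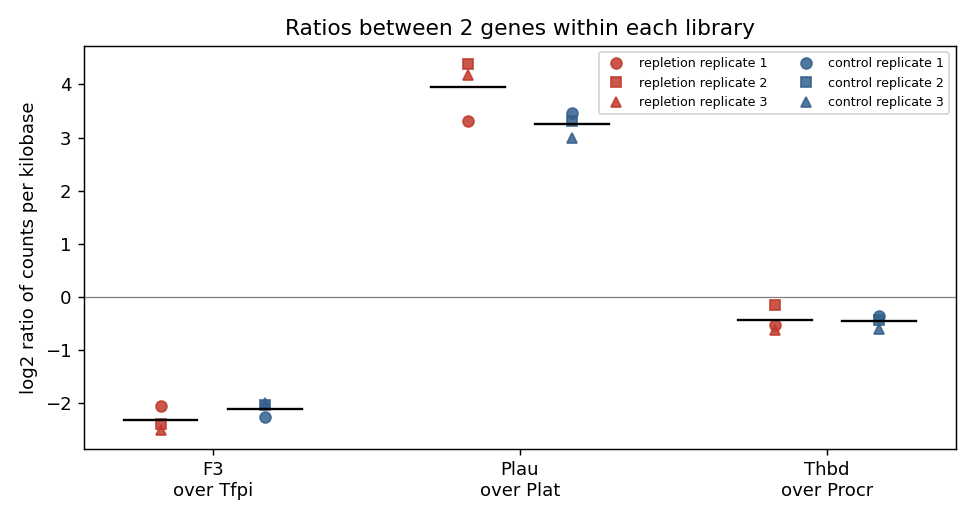
Log2 ratio of counts per kilobase between 2 genes within each library, repletion left and control right; symbols mark replicates and lines are means. Repletion replicate 1 lies apart from the other repletion libraries for Plau over Plat, at 9.91-fold against 20.8- and 18.2-fold.

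The wider pathway was described with 4 lists holding 46 genes, of which 26 passed the filter, and 36 of the 46 are not among the 10 genes. Of the 17 tested among these 36, 4 rose and 4 fell, against the 20.5% and 19.2% of all tested features, with a median log2 fold change of 0.06. F9, F10, F12, Plg, Proc, Serpina5 and Hs3st3a1 had 0 reads in all 6 libraries, which allows a level of up to the same floor of 3 counts per library.

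Of the 4 protease-activated receptor genes, all tested, 3 rose and F2rl2 did not pass, with a list median of 0.63. Over all tested features 20.5% were higher and 19.2% lower, the background for this count and those of the next 3 lists. These counts include members and rest on 4 to 8 tested genes per list, so they are no result about a list as a set. F2rl3, the gene of the thrombin receptor PAR4, had 111, 73 and 99 reads in repletion replicates 1 to 3 and 18, 43 and 39 reads in control replicates 1 to 3, and rose by 1.47 ± 0.34 (SE, log2). F2rl1, the gene of PAR2, which trypsin-like proteases and the tissue factor complex activate, had 17.2, 17.2 and 20.2 CPM in repletion replicates 1 to 3 and 11.3, 10.6 and 10.3 CPM in control replicates 1 to 3. It rose by 0.76 ± 0.17 (SE, log2), and the adjusted p of F2rl3 and F2rl1 were 0.00243 and 0.00159 in edgeR's quasi-likelihood test. F2rl2, the gene of PAR3, had a log2 fold change of 0.16 ± 0.20 (SE), with adjusted p = 0.571 (edgeR quasi-likelihood). F2rl1 (95511732 to 95525227), F2r and F2rl2 (95696853 to 95702739) lie close together on chromosome 13. F2rl2 overlaps Iqgap2 on the other strand, and F2rl3 shares 467 bases at 97.0% identity with Gm29705, which had 0 reads, so the values of these 2 genes are uncertain.

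Of the 14 anticoagulant genes, 7 were tested, 1 rose and 4 fell, with a median log2 fold change of -0.28. Beside Thbd, Procr and Tfpi, Anxa5, which encodes the phosphatidylserine-binding annexin A5, fell by 0.29. The gene that rose was Tfpi2, which encodes a Kunitz-type protease inhibitor related to Tfpi. Tfpi2 had 15.8, 19.4 and 15.6 CPM in repletion replicates 1 to 3 and 10.4, 8.50 and 9.17 CPM in control replicates 1 to 3, and rose by 0.86 ± 0.18 (SE, log2), with adjusted p = 0.00119 (edgeR quasi-likelihood). Tfpi and Tfpi2 thus moved in opposite directions, while Pros1, the gene of protein S, and Serpinc1, the gene of antithrombin, which overlaps Zbtb37, had log2 fold changes of 0.06 and 0.31 and did not pass.

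Of the 16 genes of coagulation factors and tissue factor activity, 7 were tested and 2 fell, with a median of -0.29. P4hb, the gene of protein disulfide isomerase, fell by 0.43, with adjusted p = 0.00259 (edgeR quasi-likelihood), and Vwf, the gene of von Willebrand factor, fell by 0.45. F8, the gene of factor VIII, which overlaps Fundc2, stood at 112 CPM in repletion and 108 CPM in control libraries on average and did not pass.

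Of the 12 genes of plasminogen activation and its inhibitors, 8 were tested, 2 rose and 1 fell, with a median of 0.07. Plau, described above, was 1 of the 2 that rose. The scavenger receptor gene Lrp1, whose product clears activator-inhibitor complexes and which overlaps the antisense gene Gm16217, rose by 0.44, but its log2 fold change was 0.02 (adjusted p 0.91) with length and GC content adjusted for. S100a10, which encodes the partner of annexin A2 in its surface complex, fell by 0.38.

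Of the 8 genes called outside the 10, P4hb, Tfpi2, F2rl1 and F2rl3 passed in all 16 alternatives and the other 4 did not. Lrp1 did not pass without repletion replicate 3 (0.07) or control replicate 1 (log2 fold change 0.26, adjusted p 0.0783), in a range of 0.00269 to 0.91. S100a10 did not pass without repletion replicate 1 (0.0561) or control replicate 3 (log2 fold change -0.24, adjusted p 0.168), nor with length and GC content adjusted for (0.0502), in a range of 0.00222 to 0.168. Vwf passed in 9 of the 16 and Anxa5 in 9. Vwf did not pass without repletion replicate 2 (0.0503) or 3 (0.0924) or control replicate 2 (0.0771) or 3 (0.187), with DESeq2 (0.0576) or with library size only (0.0716), in a range of 0.00045 to 0.187, and its log2 fold change was -0.83 with length and GC content adjusted for. Anxa5 did not pass without repletion replicate 1 (0.0567) or 3 (0.157) or control replicate 1 (0.103) or 3 (0.0873), with library size only (0.0906) or with length and GC content adjusted for (0.0558), in a range of 0.0132 to 0.157.

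**Figure D5:**
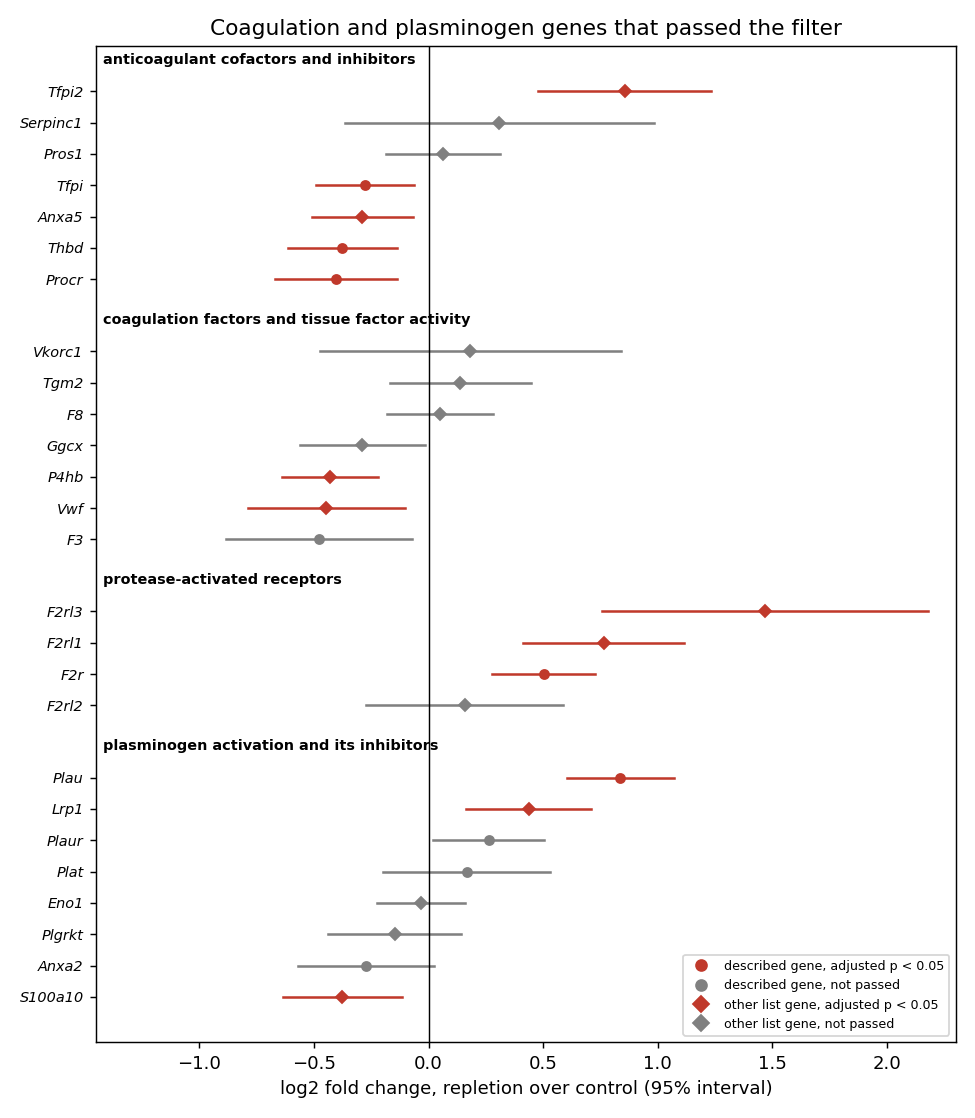
Log2 fold change (repletion over control, with 95% intervals) of the 26 tested genes of the 4 lists; circles are the genes described first, diamonds the other list genes, and red marks an adjusted p under 0.05. The receptor genes F2rl3, F2rl1 and F2r lie right of 0, at 1.47, 0.76 and 0.50, and Thbd, Procr and Tfpi lie left, at -0.38, -0.40 and -0.28.

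The authors' deposited table gave the same directions for the 9 tested genes. In the authors' deposited table, the adjusted p were 2.39e-11 for Plau, 5.32e-05 for F2r, 0.00496 for Thbd, 0.00905 for Procr and 0.0309 for Tfpi. They were 0.0984 for F3, 0.0951 for Plaur, 0.146 for Anxa2 and 0.575 for Plat in the authors' deposited table.

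The protein-coding gene with the most similar pattern over the 6 samples was sought, as the smallest root mean square difference of centred log2 CPM. It was Fam45a for F2r (0.0372), Cul9 for Thbd (0.0393), Nelfe for Procr (0.0336) and Bckdk for Tfpi (0.0238). For the genes that did not pass, it was Rusc2 for F3 (0.0414), Tmem184b for Plaur (0.0344), Snx1 for Anxa2 (0.0428) and Gar1 for Plat (0.0587). With 6 samples in 2 groups, these distances describe a level pattern in these libraries.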

How the data were processed

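RNA-seq counts of 6 samples, 3 repletion and 3 control, were taken from the deposited table, with groups from the sample titles. The deposited counts are the columns whose headers end in count, and they were used as raw counts per feature. Per the submitters' processing notes, the build was GRCm38.p6 and the tools were DESeq2 1.20.0, featureCounts 1.5.0-p3 and HISAT2 2.0.5, with no role for each. Neither the strand setting nor the annotation release is given in the sources used here. The deposited FPKM, scaled by the authors, served for levels per length. The authors' group means of normalized signal were used only to check the direction of the deposited log2 fold changes, and the authors' p-values were copied. Depth was 15582349 to 17817618 counts per sample, and replicates differed by more than sampling noise (chi-square of 8.56 to 23.3 per feature).

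Counts were filtered with filterByExpr (13804 features kept, 41428 removed), scaled by TMM (factors 0.97 to 1.03) and tested with edgeR 4.0.16 (glmQLFit, glmQLFTest; R 4.3.3), two-sided, with Benjamini-Hochberg adjustment over all tested features and a threshold of 0.05. The SE came from the F statistic. CPM are TMM-scaled, except marker sums and Serpine2, which use the library total. Ratios were tested with exact permutation over samples. Alternatives were DESeq2 1.42.0, limma-voom 3.58.1, scaling by upper quartile, RLE or library size only, a lack of filter, at least 1 CPM in 3 samples, protein-coding features, a replicate block, each library left out, and offsets for length and GC content (splines with 5 degrees of freedom). GC content, overlaps and copies (BLAST 2.17.0) came from GENCODE M21. The tests were tried on simulated counts. There, 27 of 67 simulated 1.5-fold changes (40.3%) were recovered, against 88.1% at 2-fold and 98.5% at 4-fold. A gene that did not pass may therefore still differ by a small fold. The members and lists were chosen with earlier results of these data known; all 10 members, list genes past the threshold and each member's nearest pattern were named by rule, and other list genes as examples after their values were seen. A few results on other genes are not reported here, and the counts over the lists leave them out.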

Additional observations from a re-analysis of the deposited data

How the results depend on the processing

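Plau and F2r kept their direction and call in all 16 alternatives, and no called member or list gene changed sign in any of them. The number of members called lower, 3 as reported, was 0 to 5 when 1 library was left out: 0 without repletion replicate 3, 5 without repletion replicate 1 and 1 without control replicate 3. The number called higher, 2 as reported, was 2 to 3. All other counts of calls stayed within 1.5 times the reported ones. With 1 library left out, the log2 difference of Thbd over Procr, 0.03 as reported, was -0.11 to 0.13, below 0 without repletion replicate 2 (-0.11) and without control replicate 3 (-0.04). That of F3 over Tfpi, -0.22 as reported, was -0.35 (without repletion replicate 1) to -0.12 (without repletion replicate 3), and that of Plau over Plat, 0.71 as reported, was 0.49 to 1.03, the highest without repletion replicate 1. With 1 library left out, the smallest exact permutation p possible is 0.1. Deviations of same-numbered repletion and control samples had correlations of -0.114, -0.068 and 0.057 for numbers 1, 2 and 3. Those of differently numbered samples were -0.078 to 0.128. With 3 libraries per group, these values cannot tell whether same-numbered samples share a culture or batch. With a replicate block, 2 members were higher and 2 lower, with Tfpi at an adjusted p of 0.0789, and 2485 features were higher and 2353 lower, against 2830 and 2654. Among the list genes, Anxa5 (0.0777) and Vwf (0.0667) did not pass with the block. Adjusting for length and GC content shifted the median of all features to -0.097. The low counts of F3 and F2rl3 limit the precision of their values.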
